A study of Mus musculus with 6 samples.

Results

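The signalling ligands described here are the messages of 10 genes, Bmp2, Bmp4, Bmp5, Bmp6, Bmp7, Bmp10, Tgfb1, Tgfb2, Tgfb3 and Inhba, which were taken by name from the 46983 genes listed in the deposited tables by a rule that sets no threshold on their values, though earlier results of these data were known when it was written. Each library was made from the RNA of 1 whole heart at E13.5. The 3 mutant hearts (replicates 1, 5 and 10) carried Tnnt2 Cre with both Wt1 alleles floxed. The 3 control hearts (replicates 2, 3 and 5) are labelled wild type, while the study's methods give them as Cre-negative embryos whose Wt1 alleles were also floxed. The labelled strain of both groups is a cross of C57BL/6 and DBA/2. Tnnt2 drives Cre in the myocardium, and the methods add that part of the epicardium also derives from cells that expressed it, so the deletion does not cover every Wt1-expressing cell of a whole heart. The comparison asks whether these ligand mRNAs differ between hearts with and without this deletion of Wt1, a zinc-finger transcription factor best known in the heart from the epicardium.

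Bone morphogenetic proteins (BMPs), transforming growth factors beta (TGF-betas) and activins are secreted dimers of a single superfamily. They are cut from larger precursors, held back by antagonists or by a latent complex in the matrix, and bind pairs of type I and type II serine/threonine kinase receptors. BMPs mostly signal through Smad1, Smad5 and Smad9, and TGF-betas and activins through Smad2 and Smad3. In the developing heart, Bmp10 is a myocardial factor of the trabeculae and atria, Bmp2 and Bmp4 act in the atrioventricular canal and outflow tract, and Tgfb2 is known for its part in the cushions from which valves and septa form.

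All 10 ligands had enough counts to be tested, from 126 to 12646 counts per heart at a depth of 44244665 to 56373393 counts. The targeted gene, Wt1, was at 40.0, 32.9 and 20.0 CPM in control replicates 2, 3 and 5 and at 17.7, 33.3 and 35.7 CPM in mutant replicates 1, 5 and 10, where CPM stands for counts scaled to a fixed normalised library size. The groups overlapped, and reads over the whole gene in a whole heart do not separate deleted from intact alleles. The 10 cardiac muscle markers had a summed level of 16440 to 19110 FPKM in controls and 18550 to 19080 FPKM in mutants. Control replicate 5 stood apart in its trend with gene length, with a Spearman's rho between gene length and a gene's deviation from its mean of −0.556 across 11795 genes, against −0.0622 to 0.464 in the other hearts. The summed level of 10 erythroid markers, most of them globins, was high in control replicate 5 and mutant replicate 10, with 61330 and 63350 FPKM against 19480 to 26630 FPKM in the others. In 6 of the 10 both hearts were above all others, and Hba-a2, Hbb-bh1, Hba-x and Slc4a1 did not follow this pattern. These hearts are called globin-rich below by that sum.

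The mRNA of Bmp7 had the highest level of the 10 ligands in the deposited FPKM (fragments per kilobase of gene, scaled to the total count of the heart), and that of Inhba the lowest. Bmp7, which acts broadly and overlaps in function with Bmp5 and Bmp6, was at 80.7, 84.1 and 69.1 FPKM in control replicates 2, 3 and 5 and at 75.0, 77.9 and 79.3 FPKM in mutant replicates 1, 5 and 10. It made up 28.7% to 33.0% of the summed FPKM of the 10 ligands in each heart. Averaged over the 6 hearts, Tgfb2 (47.6 FPKM), Bmp10 (39.1 FPKM), Bmp4 (30.4 FPKM) and Tgfb1 (28.5 FPKM) followed. The range of each over the hearts overlapped that of the next, and the range of Bmp10 overlapped all the others, while that of Tgfb2 (35.8 to 59.4 FPKM) lay above those of Bmp4 and Tgfb1. Tgfb3 stood alone below them at 9.63 FPKM. Bmp6 (6.62 FPKM), Bmp5 (6.38 FPKM) and Bmp2 (5.93 FPKM) overlapped one another, and the lowest, Inhba (3.18 FPKM), overlapped with Bmp2.

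This order depends on the gene length by which the authors divided. The length behind the deposited FPKM equalled the mean length of a gene's GENCODE M21 transcripts, within 1 base, for 76.1% of 26680 genes and for 7 of the 10 ligands, the exceptions being Bmp4, Bmp6 and Inhba. The source of those lengths is not given in the sources used here. For Tgfb2 it was 1828 bases, while the longest coding transcript has 5116 bases (2.80 times as long), and for Inhba, where it also differed from the mean transcript length of 3960 bases, 1743 against 6390 bases (3.67 times). Bmp2 and Bmp10, which have 1 transcript each, kept the same length by either reckoning. When CPM was instead divided by the length of the longest coding transcript, Bmp7 (49.3 CPM per kilobase) was followed by Bmp10 (39.1 CPM per kilobase), whose ranges overlapped, and both lay above all other ligands. Bmp4 was at 20.7, Tgfb2 at 17.0 and Tgfb1 at 16.2 CPM per kilobase on this scale, again with overlapping ranges. Bmp2 (5.91 CPM per kilobase) then stood ahead of Bmp6 (4.44) and Bmp5 (3.64), and Inhba (0.861) lay below every other ligand without overlap. Thus Tgfb2 held the second place in the deposited FPKM and the fourth per kilobase of coding transcript. Dividing by all exon bases lowered Tgfb1 further, to 6.99 CPM per kilobase, below Tgfb3 (9.62).

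**Figure D1:**
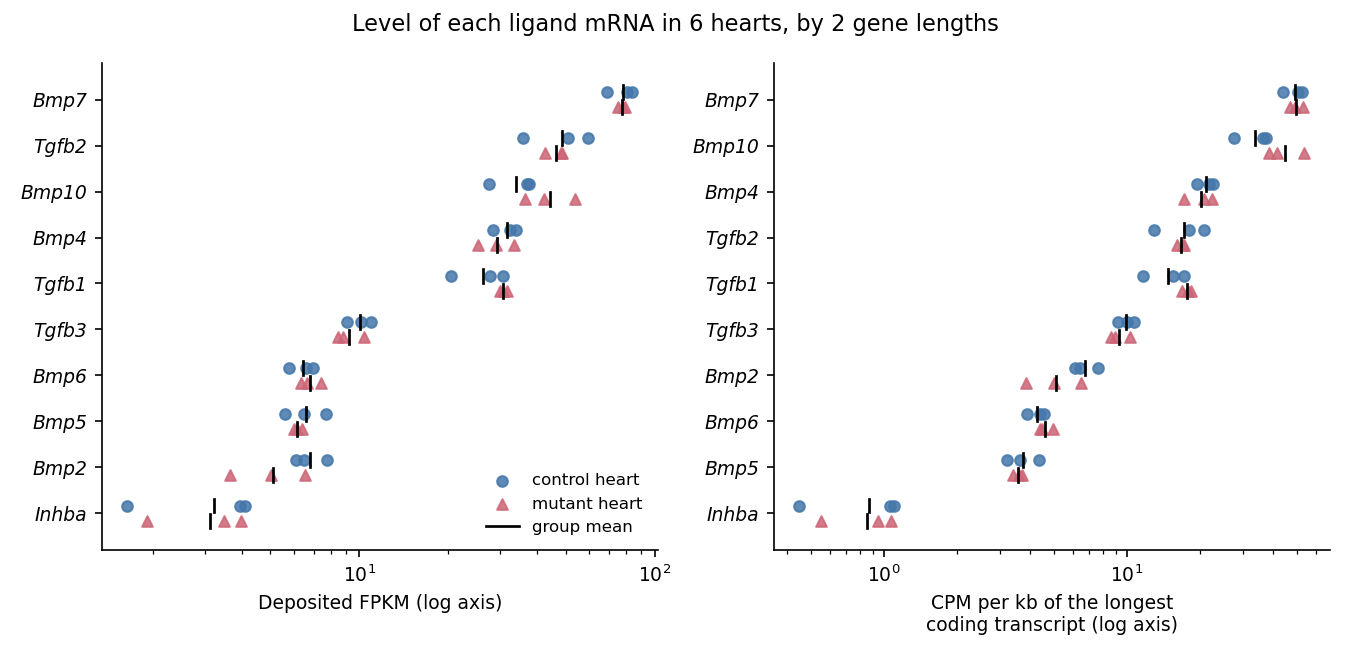
Level of each ligand mRNA in the 3 control hearts (circles) and 3 mutant hearts (triangles) on log axes, with the mean of each group as a black bar, as deposited FPKM on the left and as CPM per kilobase of the longest coding transcript on the right. Bmp7 has the highest mean on both scales, although its range overlaps that of Bmp10 on the right, while Tgfb2 moves from the second to the fourth place (47.6 FPKM, 17.0 CPM per kilobase).

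None of the 10 ligands passed the threshold between mutant and control hearts (a p under 0.05 by the quasi-likelihood test of edgeR after Benjamini-Hochberg adjustment over 17473 genes), and this threshold was passed by 0.0% of all genes tested. The smallest adjusted p of any gene was 0.0991. With DESeq2, the tool named in the methods, 133 genes (0.69% of those with an adjusted p) passed and again 0 ligands. At an unadjusted p under 0.05, 1 ligand of 10 passed with either tool, Bmp10, against 5.73% of all genes in edgeR (3.14% higher and 2.59% lower in mutants) and 4.32% in DESeq2. A positive log2 fold change, meaning higher in mutants, was found for 4 ligands and 49.8% of all genes, and a negative one for 6 ligands. The median log2 fold change was −0.03 over the ligands and −0.001 over all genes tested. For 5 of the 10 ligands the size of the change was below 0.0887, the median size over the 10112 tested genes above 10 CPM. Inhba, among these 5, was itself below 10 CPM (mean 5.50 CPM), and its estimate had a standard error of 0.37.

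**Figure D2:**
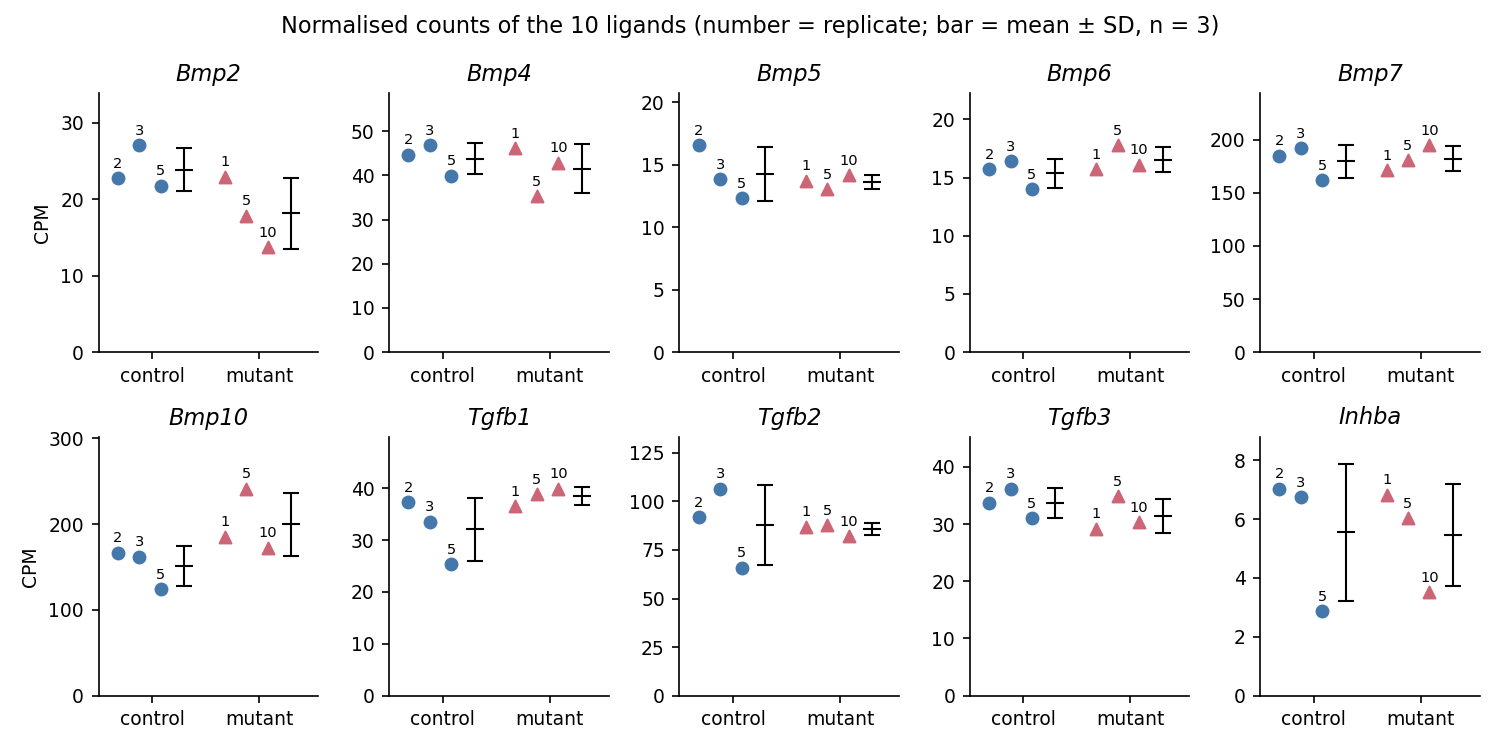
Normalised counts (CPM, axes from 0) of the 10 ligands in each control heart (circles) and mutant heart (triangles), labelled by replicate, with the mean ± SD of each group (n = 3). Only for Bmp10 do all mutant hearts lie above all controls, and control replicate 5 is the lowest control for every ligand.

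Bmp10 (ENSMUSG00000030046, GRCm38 chromosome 6 from 87428994 to 87437677, plus strand) was the ligand with the smallest p. Its mRNA was at 167, 162 and 124 CPM in control replicates 2, 3 and 5 and at 186, 241 and 172 CPM in mutant replicates 1, 5 and 10. Every mutant heart lay above every control, although mutant replicate 10 exceeded control replicate 2 by little, and such a separation was found for 11.2% of all genes tested (6.61% with mutants higher and 4.59% with mutants lower). In the deposited FPKM, which are not adjusted for library composition, the groups overlapped, with 37.7 FPKM in control replicate 2 and 36.4 FPKM in mutant replicate 10. Means were 151 ± 23.4 CPM (SD, n = 3) in controls and 200 ± 36.5 CPM (SD, n = 3) in mutants, with a log2 fold change of 0.40 (standard error 0.17, 95% interval 0.02 to 0.79), or 1.32-fold, an unadjusted p = 0.0418 and an adjusted p = 0.847 in edgeR. DESeq2 gave an unadjusted p = 0.0278 and an adjusted p = 0.701. The log2 fold change stayed positive with each heart left out in turn (0.24 to 0.50), and was lowest without mutant replicate 5, where the unadjusted p from edgeR was 0.192. Without control replicate 5 it was 0.28 (unadjusted p = 0.0717 in edgeR), and without both globin-rich hearts 0.37 (unadjusted p = 0.0231 in edgeR, adjusted p = 0.433, where 9.70% of all genes had an unadjusted p under 0.05).

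Bmp10 is known from trabecular and atrial muscle. Of 10 ventricular and trabecular markers, 9 had a positive log2 fold change (49.8% of all genes did) and 2 of these an unadjusted p under 0.05 (3.14% of all genes), with a median of 0.20 and a summed level of 12530 to 14250 FPKM in controls and 14270 to 15280 FPKM in mutants. Of 7 atrial markers, 6 had a negative one and 4 of these an unadjusted p under 0.05 (2.59% of all genes), with a median of −0.42. Their summed level overlapped between the groups, at 4687 to 6385 FPKM in controls and 4003 to 5186 FPKM in mutants. Nppa, at −0.42, is in both lists, and no marker of either passed the adjusted threshold in edgeR, which no gene passed. With DESeq2, 1 atrial marker and 0 ventricular and trabecular markers passed, against 0.69% of all genes. This was Kcna5, with a log2 fold change of −0.73 in edgeR and an adjusted p = 0.133 in edgeR and 8.8e-05 in DESeq2. The part of these muscle regions in the values of Bmp10 was not tested, and in whole hearts fewer cells of a type and less RNA per cell cannot be told apart. Among 11794 tested genes with a mean log2 CPM over 2, those closest to the course of Bmp10 over the 6 hearts, by the root mean square difference of centred log2 CPM, were Itgav (0.0664), Sobp (0.0680) and Nckap1l (0.0711), where the median was 0.303. Itgav encodes an integrin chain of receptors that release TGF-beta from its latent form, and was at 91.6, 86.1 and 61.6 CPM in control replicates 2, 3 and 5 and at 89.3, 120 and 90.7 CPM in mutant replicates 1, 5 and 10. Having been picked for this closeness, it was, like Bmp10, lowest in control replicate 5 and highest in mutant replicate 5.

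The sequence before the start site of Bmp10 is shown because it was the ligand whose groups separated, and those of Tgfb1 and Bmp4 because they held the letters GTGGGNG, a core of the kind of site that WT1 and EGR zinc fingers bind. They are the 250 bases before the RefSeq start site on GRCm38.p6, written 5′ to 3′ on the strand of the gene. Capitals mark AGATAA, which GATA factors bind, in Bmp10, and GTGGGNG on either strand in Tgfb1 and Bmp4.
Bmp10, chr6:87428744-87428993, plus strand: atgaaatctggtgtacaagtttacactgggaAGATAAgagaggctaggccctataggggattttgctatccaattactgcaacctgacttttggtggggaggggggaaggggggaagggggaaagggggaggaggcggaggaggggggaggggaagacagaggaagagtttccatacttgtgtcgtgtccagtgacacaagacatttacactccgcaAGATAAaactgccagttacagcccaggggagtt
Tgfb1, chr7:25686752-25687001, plus strand: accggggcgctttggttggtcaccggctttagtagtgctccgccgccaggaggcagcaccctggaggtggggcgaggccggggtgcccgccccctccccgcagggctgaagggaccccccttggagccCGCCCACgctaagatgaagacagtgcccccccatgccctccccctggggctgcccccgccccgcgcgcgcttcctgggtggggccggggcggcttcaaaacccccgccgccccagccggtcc
Bmp4, chr14:46390670-46390919, minus strand: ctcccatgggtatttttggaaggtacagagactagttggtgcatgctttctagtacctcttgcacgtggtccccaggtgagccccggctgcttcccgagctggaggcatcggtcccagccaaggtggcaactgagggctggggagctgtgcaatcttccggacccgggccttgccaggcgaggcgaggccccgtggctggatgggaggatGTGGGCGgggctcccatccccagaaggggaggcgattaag
RefSeq promoter windows were found for 7 of the 10 ligands (Bmp4, Bmp5, Bmp6, Bmp10, Tgfb1, Tgfb2 and Inhba). GTGGGNG was in 28.1% of the 32851 windows of this length and in those of Tgfb1 (minus strand, starting 122 bases before the start site) and Bmp4 (plus strand, 40 bases before). In both genes it overlapped a copy of GGGCGG, the GC box, which in Tgfb1 started 123 bases before the start site on the minus strand. The GC box was in 32.7% of all windows and, among the ligands, also in Bmp6. AGATAA was in 9.99% of all windows and, among the ligands, in Bmp10 at 219 and 33 bases before the start site. TATAAA was in 12.4% of all windows and in those of Tgfb2 (31 bases before the start site) and Inhba (91 bases before). Each match is a description of the letters and not of a site in use.

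Bmp2 (ENSMUSG00000027358, chromosome 2 from 133552159 to 133562885, plus strand) had the largest negative estimate. It patterns the atrioventricular canal, where it is known to induce Tbx2. It was at 22.8, 27.1 and 21.8 CPM in control replicates 2, 3 and 5 and at 22.9, 17.8 and 13.7 CPM in mutant replicates 1, 5 and 10. Mutant replicate 1 lay within the control range, and the other mutants below it. The log2 fold change was −0.39 (standard error 0.19, 95% interval −0.83 to 0.04), or 0.761-fold, with an unadjusted p = 0.0688 and an adjusted p = 0.913 in edgeR. With each heart left out in turn it ranged from −0.60 without mutant replicate 1 (unadjusted p = 0.0102 in edgeR, adjusted p = 0.616) to −0.23 without mutant replicate 10 (unadjusted p = 0.219 in edgeR). Without control replicate 3 the unadjusted p in edgeR was 0.209, and without both globin-rich hearts the estimate was −0.30 (unadjusted p = 0.0912 in edgeR). Of 9 markers of sinus venosus and atrioventricular canal muscle, 8 had a negative log2 fold change, where 49.8% of all genes had a positive one. Of these, 4 had an unadjusted p under 0.05 in edgeR (2.59% of all genes). The median was −0.38, and the summed level 139 to 177 FPKM in controls and 114 to 142 FPKM in mutants. DESeq2 called 1 of the 9, Shox2 (adjusted p = 2.05e-09), where it called 0.69% of all genes. Shox2 was at 35.5 to 41.2 CPM in controls and at 16.6 to 20.2 CPM in mutants. Its log2 fold change was −1.02 (adjusted p = 0.0991 in edgeR). The part of sinus venosus and atrioventricular canal muscle in the values of Bmp2 was not tested.

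The other BMP ligands differed little. Bmp4 was at 44.7, 46.8 and 39.9 CPM in control replicates 2, 3 and 5 and at 46.1, 35.3 and 42.9 CPM in mutant replicates 1, 5 and 10, with a log2 fold change of −0.08 (95% interval −0.37 to 0.21). Bmp7 was at 185, 192 and 162 CPM in the controls and at 171, 180 and 195 CPM in the mutants in the same order, and its log2 fold change was 0.02 (95% interval −0.23 to 0.28). In both genes the groups overlapped widely. The interval of Bmp7 held changes from 0.851-fold to 1.21-fold, the narrowest span among the 10 ligands on the log2 scale, and its estimate was negative in 10 of 17 alternative settings. Bmp5 had a log2 fold change of −0.06 (95% interval −0.38 to 0.25) at 12.3 to 16.6 CPM, and Bmp6 one of 0.11 (95% interval −0.16 to 0.37) at 14.0 to 17.8 CPM. The strand setting of the counting is not given in the sources used here, and 46.7% of the exon bases of Bmp5 are also covered by Gm26903 on the opposite strand. How reads of the shared stretch were assigned, or whether they were counted at all, is therefore not known. This also limits the level of Bmp5 given above. Smaller shares of the exon bases of Tgfb3 (7.60%, Gm48008), Bmp6 (5.74%, Txndc5), Bmp4 (3.96%, Gm15217) and Tgfb2 (2.14%, Gm29491) are covered in the same way.

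**Figure D3:**
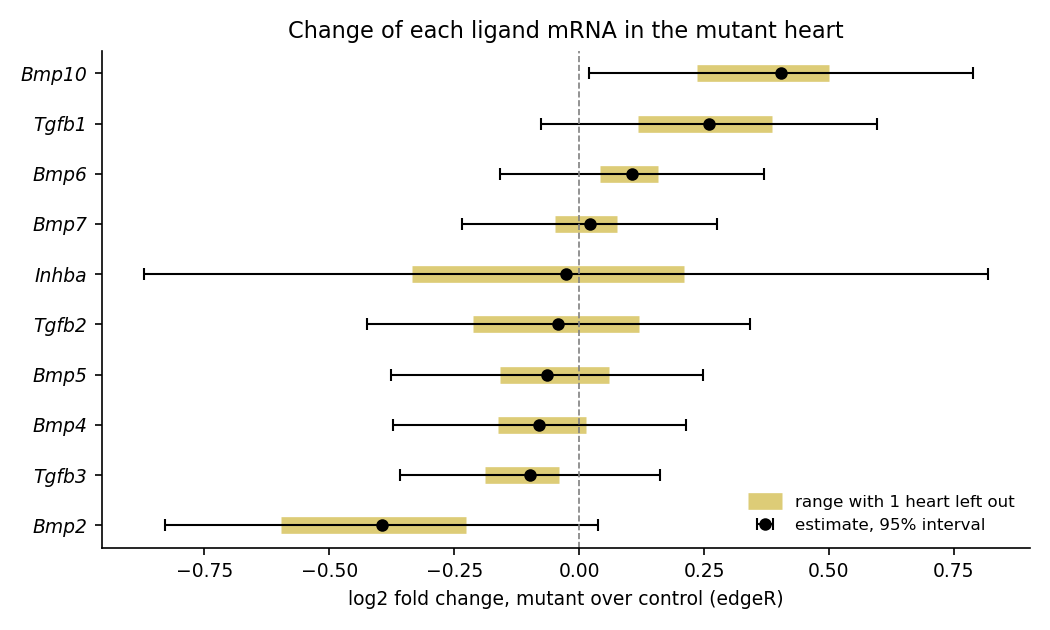
log2 fold change of each ligand, mutant over control, as estimated by edgeR with its 95% interval (points and thin lines) and the range of the estimate with 1 heart left out (broad bars). The interval of Bmp10 alone lies off 0 (0.02 to 0.79), and that of Inhba is the widest (−0.87 to 0.82).

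Among the TGF-betas, Tgfb1 (ENSMUSG00000002603, chromosome 7 from 25687002 to 25705077, plus strand), the form made by endothelium, blood cells and platelets, had the largest estimate. It was at 37.3, 33.5 and 25.4 CPM in control replicates 2, 3 and 5 and at 36.5, 38.8 and 39.9 CPM in mutant replicates 1, 5 and 10. The mutants were close together, and control replicate 5 lay far below all other hearts. The estimate was 0.26 on the log2 scale (standard error 0.15, 95% interval −0.08 to 0.60) with an unadjusted p = 0.112 in edgeR, and 0.12 without control replicate 5 or 0.08 without both globin-rich hearts. Markers of cell types known to make Tgfb1 are given beside it. Of 10 markers of endocardium and endothelium 9 had a positive log2 fold change and 1 of these an unadjusted p under 0.05 (3.14% of all genes), with a median of 0.28 that was 0.15 without control replicate 5, and a summed level of 299.5 to 419 FPKM in controls and 378 to 462 FPKM in mutants. Of 12 macrophage markers 11 had a positive log2 fold change and an unadjusted p under 0.05 in edgeR (3.14% of all genes). Their summed level was 54.4 to 73.5 FPKM in controls and 95.5 to 106 FPKM in mutants. DESeq2 called 5 of the 12 (0.69% of all genes), namely C1qa, C1qb, Timd4, Msr1 and Vsig4, all higher in mutants. The adjusted p in DESeq2 ran from 1.6e-07 (Msr1) to 0.00503 (C1qb). Vsig4 reached at most 0.7551 CPM in any heart and Timd4 2.655 CPM. Of 10 platelet and megakaryocyte markers 9 had a positive log2 fold change and 6 of these an unadjusted p under 0.05 in edgeR (3.14% of all genes). Their summed level was 32.9 to 48.9 FPKM in controls and 52.5 to 74.6 FPKM in mutants. DESeq2 called 1 of the 10, Ppbp (adjusted p = 2.41e-05). Over all genes tested, 49.8% had a positive log2 fold change. No marker of the 3 lists was at or under 3 counts in every heart. In the controls, however, Vsig4 was near the floor, at 0.0355, 0.0522 and 0.0 CPM in replicates 2, 3 and 5. Control replicate 5, where Tgfb1 was lowest, had the lowest summed level of the endothelial markers among the controls and the highest of the macrophage and platelet markers. The part of these cells in the values of Tgfb1 was not tested.

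Tgfb2 (ENSMUSG00000039239, chromosome 1 from 186622792 to 186705989, minus strand) was at 91.8, 107 and 65.8 CPM in control replicates 2, 3 and 5 and at 86.9, 87.7 and 82.0 CPM in mutant replicates 1, 5 and 10. All mutants lay inside the span of the controls, whose standard deviation was 20.6 CPM against 3.08 CPM among mutants. The log2 fold change was −0.04 (95% interval −0.42 to 0.34). Its direction turned on a single heart, from −0.21 without control replicate 5 (unadjusted p = 0.0359 and adjusted p = 0.369 in edgeR, where 5.69% of all genes were lower with an unadjusted p under 0.05) to 0.12 without control replicate 3. Tgfb3, which is known in palate fusion and in cardiac mesenchyme, was at 31.0 to 36.2 CPM in controls and at 29.2 to 34.8 CPM in mutants, with a log2 fold change of −0.10 (95% interval −0.36 to 0.16).

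Inhba (ENSMUSG00000041324, chromosome 13 from 16011851 to 16031621, plus strand) encodes the beta A chain from which activin A is built, and was the least abundant ligand. Its reads numbered 396, 388 and 126 in control replicates 2, 3 and 5, against 355, 316 and 177 in mutant replicates 1, 5 and 10. Control replicate 5 and mutant replicate 10 were low, and their exact Poisson 95% intervals (105 to 150 and 152 to 205 reads, covering counting error only) lay below those of the other hearts (282 to 437 reads over all). The group means were alike, at 5.55 ± 2.33 CPM (SD, n = 3) in controls and 5.46 ± 1.73 CPM (SD, n = 3) in mutants. The log2 fold change was −0.03 (95% interval −0.87 to 0.82), an interval that held changes from 0.547-fold to 1.76-fold. The low hearts were those with the most globin. The summed level of 10 markers of cushion and valve mesenchyme was also low in both, at 363 and 369 FPKM against 559 to 568 FPKM in the others. Both hearts were below all others in 7 of the 10, and not in Scx, Prrx1 and Msx1. Without both hearts the log2 fold change of Inhba was −0.11, and the part of blood content or of cushion mesenchyme in its level was not tested.

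Control replicate 5 was the lowest control for all 10 ligands, whereas it was the lowest control for 41.7% of all genes tested. It was the lowest of all 6 hearts for 7 of the 10. The summed FPKM of the 10 ligands was 209 in this heart and 244 to 278 in the others. With the trend of each heart with gene length removed by local regression, it remained the lowest control for 8 ligands, against 38.7% of genes. Leaving it out moved the median log2 fold change of the ligands from −0.03 to −0.15, and 0 ligands passed the threshold, which 0.247% of all genes then did. At an unadjusted p under 0.05, Bmp2 and Tgfb2 were then lower and no ligand higher, where 12.2% of all genes passed in either direction.

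**Figure D4:**
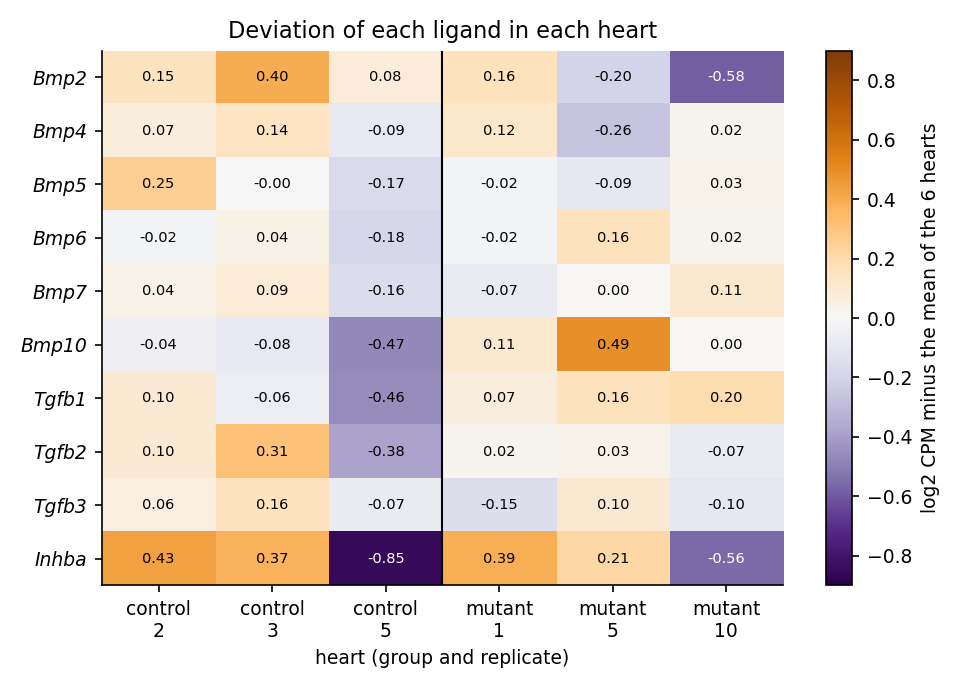
Deviation of each ligand from its mean over the 6 hearts, in log2 CPM, by heart (columns) and ligand (rows), with controls left of the line and mutants right of it. Control replicate 5 is low throughout except for Bmp2 (0.08), and the deviations of Inhba are −0.85 in control replicate 5 and −0.56 in mutant replicate 10.

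The other genes of the pathway were described by lists of ligands, processing factors, antagonists, receptors, Smads and target genes. None of their genes passed the threshold in edgeR, and 3 passed in DESeq2, where 0.69% of all genes did. These were Fst, Acvr1c and Col1a1, described below. They were 1 each of 25 listed antagonists and binding proteins, 19 receptors and 20 TGF-beta and activin target genes. Of 16 other ligands of the superfamily that were tested, 8 were higher and 8 lower in mutants, with a median log2 fold change of −0.0033. The inhibin alpha chain gene Inha, whose product pairs with beta chains to oppose activin, was at 8.75, 8.38 and 9.41 CPM in control replicates 2, 3 and 5 and at 8.23, 5.09 and 5.66 CPM in mutant replicates 1, 5 and 10, with a log2 fold change of −0.48 (adjusted p = 0.847 in edgeR). Gdf10 had one of −1.51, but 1 heart decided its size. Control replicate 3 had 53.2 CPM and the other hearts 3.73 to 14.9 CPM, and without it the estimate was −0.40. The same heart held 874 summed FPKM of hepatocyte markers, against 1.80 to 23.6 FPKM in the others. The part of other tissue in the value of Gdf10 was not tested.

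Among 19 tested factors of ligand processing and latency, 14 were higher, with a median of 0.10 that fell to −0.02 without control replicate 5. Those with the smallest p were Nrros, which anchors latent TGF-beta on macrophages and microglia (log2 fold change 0.42, adjusted p = 0.741 in edgeR), and Ltbp2, an elastic fibre gene named after the family of latent TGF-beta binding proteins (0.99, adjusted p = 0.761 in edgeR). Ltbp2 was low, at 1.21, 1.53 and 2.43 CPM in control replicates 2, 3 and 5. It was at 2.23, 4.10 and 3.88 CPM in mutant replicates 1, 5 and 10, so its groups overlapped. Nrros was at 4.79, 5.25 and 5.64 CPM in control replicates 2, 3 and 5 and at 7.12, 6.75 and 7.09 CPM in mutant replicates 1, 5 and 10, so the groups did not overlap. Its level stands beside that of the macrophage markers given above.

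Of 23 tested antagonists and binding proteins, 12 were higher and 11 lower, with a median of 0.0005. Follistatin (Fst), which binds and blocks activin, had a negative estimate with both tools. It passed the threshold with DESeq2 (adjusted p = 0.0157) though not with edgeR (unadjusted p = 0.00259, adjusted p = 0.405). It was at 11.2, 10.6 and 10.8 CPM in control replicates 2, 3 and 5 and at 7.79, 4.52 and 5.66 CPM in mutant replicates 1, 5 and 10. All mutants lay below all controls, and the estimate of −0.86 on the log2 scale (standard error 0.20) held between −1.09 and −0.70 with each heart left out. Of the 19 receptors, 12 were higher and 7 lower, with a median of 0.07. Acvr1c, a type I receptor (ALK7) for activins and related ligands, had a negative estimate with both tools. It passed the threshold with DESeq2 (adjusted p = 0.00052) but not with edgeR (unadjusted p = 0.00108, adjusted p = 0.300). It was at 11.0, 5.15 and 8.54 CPM in control replicates 2, 3 and 5 and at 3.71, 2.86 and 2.64 CPM in mutant replicates 1, 5 and 10, a log2 fold change of −1.42 (standard error 0.29). No other receptor passed the threshold of either tool. Of 18 Smads and regulators, 9 were higher and 9 lower, with a median of 0.01, 0 past the threshold of either tool and 0 with an unadjusted p under 0.05 in edgeR, where 5.73% of all genes had one. The smallest p there belonged to Tgif1, a repressor of Smad2 and Smad3 signalling (−0.23, unadjusted p = 0.136 in edgeR), and Smurf2, a ubiquitin ligase of the pathway (0.13, unadjusted p = 0.173 in edgeR).

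**Figure D5:**
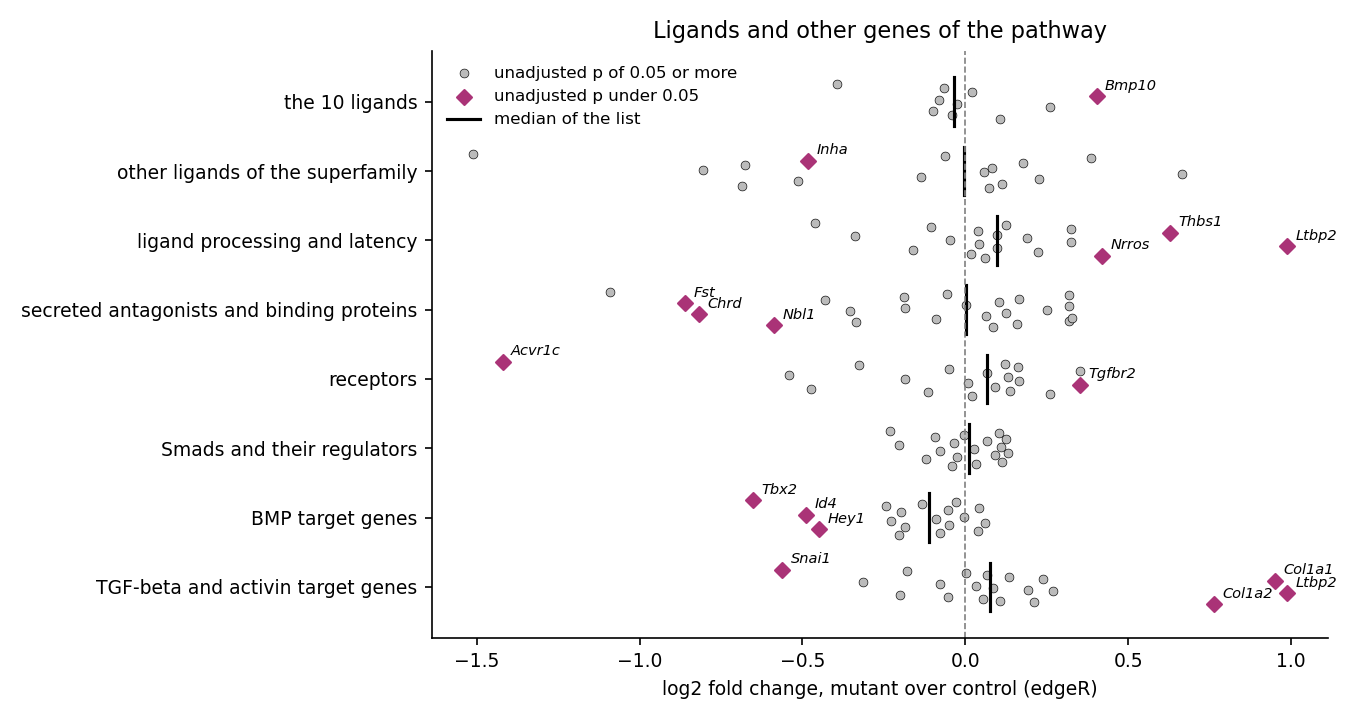
log2 fold change, mutant over control, of each tested gene in the ligand group and the pathway lists, with the median of each list as a black bar and labelled diamonds where the unadjusted p was under 0.05 in edgeR. The BMP target genes have a median of −0.11 and the Smads hold no diamond.

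Target genes are listed here for their known response to each branch, and most have other inputs too. Of 18 BMP target genes, 15 had a negative log2 fold change and 3 a positive one, where 49.8% of all genes were above 0, with a median of −0.11 and of −0.14 without control replicate 5. Those with the smallest p were Tbx2, the atrioventricular canal repressor (−0.65, adjusted p = 0.638 in edgeR), and Hey1, a Notch and BMP target of atrial muscle (−0.45, adjusted p = 0.765 in edgeR). Tbx2 was at 26.6, 37.6 and 40.0 CPM in control replicates 2, 3 and 5 and at 25.0, 23.6 and 17.6 CPM in mutant replicates 1, 5 and 10. All its mutant values lay below all controls. Tbx2 is also a member of the sinus venosus and atrioventricular canal list given beside Bmp2. The BMP target list shares Smad6, Smad7 and Smad9 with the list of Smads and Bambi with that of receptors. Several of its 15 negative values were close to 0, such as those of Smad9 (−0.004) and Msx1 (−0.03). The 3 positive values were small too (0.04 to 0.06).

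Of 20 TGF-beta and activin target genes, 14 were higher and 6 lower, with a median of 0.08 that moved to −0.03 without control replicate 5. The threshold was passed by 1 of them in DESeq2, Col1a1, where 0.69% of all genes passed, and by 0 in edgeR. Col1a1, a fibrillar collagen chain, was at 643, 695 and 368 CPM in control replicates 2, 3 and 5 and at 746, 1272 and 1280 CPM in mutant replicates 1, 5 and 10. This gave a log2 fold change of 0.95 (standard error 0.29), with an adjusted p = 0.652 in edgeR and 0.0498 in DESeq2. Control replicate 5 was again the lowest heart, and without 1 heart the estimate ranged from 0.72 to 1.17.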

How the data were processed

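RNA-seq libraries were made with a TruSeq RNA kit from the RNA of single hearts. Reads were trimmed by the authors, mapped to mm10 with STAR and, where unique, assigned to genes with featureCounts, as the methods state, whereas the submitters' processing notes name HTSeq. The deposited counts were not normalised. The authors' deposited FPKM equalled the count over 1 fixed length per gene and over the total count of the heart.

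From the counts, edgeR 4.0.16 (R 4.3.3) was run with TMM normalisation and filterByExpr (count minimum 10, total 15), a quasi-likelihood test without covariates, two-sided, on all 6 hearts. The common biological coefficient of variation was 0.209. Alternatives were DESeq2 1.42.0, other size factors, no filter, limma 3.58.1 on log2(FPKM + 1) or (FPKM + 0.1), removal of the trend with gene length (local regression, span 0.5), Xist as a covariate, and each heart left out. Scripts were tested on simulated counts. Gene positions and lengths are those of GENCODE M21 on GRCm38, and promoter sequences those of RefSeq.

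The ligands and lists were chosen with earlier results of these data known. Named from each list were genes past the threshold in edgeR or DESeq2, or else the 2 with the smallest p, and for the ligand with the smallest p the 3 genes with the closest course. The listed Lrrc33, Hjv and Ccn2 appear in the tables as Nrros, Hfe2 and Ctgf, and Gdf1 was not matched. A further gene of the target lists is not reported here. The hearts came from separate embryos, and the labels name no batch.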

Additional observations from a re-analysis of the deposited data

How the results depend on the processing

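No ligand had an adjusted p under 0.05 in any of the 17 alternative settings, where the lowest was 0.256 (Bmp2, DESeq2 without control replicate 5). Of 170 values of single ligands, 154 kept their direction. Bmp2, Bmp6, Bmp10, Tgfb1 and Tgfb3 kept it in all 17 settings. Bmp7 turned negative with library totals only (−0.0105), on log2(FPKM + 1) (−0.0056) or log2(FPKM + 0.1) (−0.0056), with the length trend removed (−0.0084) or Xist as a covariate (−0.0157), and with 1 heart left out (from −0.0483 without control replicate 5 to 0.0751), and, in settings chosen after seeing the data, with the length trend removed without control replicate 5 (−0.0397), in DESeq2 without it (−0.0517) and without both globin-rich hearts (−0.10). With 1 heart left out, Bmp4 ranged from −0.1625 to 0.0138 (positive without mutant replicate 5), Bmp5 from −0.158 to 0.0602 (positive without control replicate 2), Tgfb2 from −0.2129 to 0.1208 (positive without control replicate 3) and Inhba from −0.3352 to 0.2105 (positive without control replicate 2, control replicate 3 or mutant replicate 10). With 1 heart left out, 0 to 2 ligands had an unadjusted p under 0.05. The number was 0 with library totals, both FPKM fits and Xist as a covariate, 2 without a filter, with the length trend removed, and with this and without control replicate 5, and 3 in DESeq2 without that heart. Over all genes, the share with such a p in edgeR rose from 5.73% with all 6 hearts to 12.2% without control replicate 5. For the other settings named here that share was not computed, so these counts are not a result about the ligands. Genes of all kinds past the threshold numbered 0 in edgeR, 133 in DESeq2, 34 without a filter, 6 with the length trend removed, 6 at an adjusted p under 0.1, 0 to 44 with 1 heart left out (44 without control replicate 5), 41 with the length trend removed without that heart, 447 in DESeq2 without it, and 9 without both globin-rich hearts. Genes of the pathway lists past it numbered 3 in DESeq2, 0 without a filter and 6 in DESeq2 without control replicate 5. The cause of these moves was not tested. No paired analysis was run, because no pairing of hearts between the groups is given in the sources used here.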

Other observations

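The pathway genes not described above whose unadjusted p in edgeR was under 0.05 were picked here after their values were seen, and none had an adjusted p under 0.05 with either tool. Lower in mutants by this measure were Nbl1, a secreted BMP antagonist (log2 fold change −0.59, adjusted p = 0.456 in edgeR and 0.0858 in DESeq2), Chrd, the BMP antagonist chordin (−0.82), Id4, a dominant-negative helix-loop-helix factor (−0.49), and Snai1, a repressor of E-cadherin (−0.56). Nbl1 was at 12.5, 13.6 and 14.1 CPM in control replicates 2, 3 and 5 and at 7.70, 10.4 and 8.64 CPM in mutant replicates 1, 5 and 10, without overlap. Higher were Thbs1, an activator of latent TGF-beta (0.63), Tgfbr2, the type II TGF-beta receptor (0.35), and Col1a2 (0.76). Thbs1 was at 71.5 CPM in control replicate 5 and at 138 to 212 CPM in the other hearts. With 1 heart left out its log2 fold change ranged from 0.35 to 0.86. Tgfbr2 was at 65.4, 66.5 and 76.7 CPM in control replicates 2, 3 and 5 and at 74.8, 98.7 and 92.8 CPM in mutant replicates 1, 5 and 10, with control replicate 5 above mutant replicate 1.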
